A study of Mus musculus with 2 samples.

Results

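The cytosolic ribosomal protein genes were followed in primary mouse embryonic fibroblasts, connective tissue cells grown from midgestation embryos. The members were the rows of the deposited expression table whose names have the standard form for a protein of the large subunit (Rpl, Rplp) or of the small subunit (Rps, Rpsa), and where a name was repeated the row with the highest mean was taken. There were 81 such genes among 25430 distinct names, 49 of the large and 32 of the small subunit, and all 81 symbols matched the RefSeq gene table. Of these, 76 are the standard genes and 5 are paralogues whose names end in L (Rpl3l, Rpl10l, Rpl36al, Rpl39l and Rps27l). The name rule passes over Rpl7, which the table joins with a neighbouring gene in 1 row, and the ubiquitin-like fusion gene Fau.

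RNA was sequenced from 1 library of fibroblasts labelled Sptbn1 knockout and 1 library labelled Wild type, both from E13.5 embryos of matings between heterozygous (+/−) parents. The title of the series gives the knockout as homozygous, and Sptbn1 encodes beta-2 spectrin, a scaffold protein of the membrane skeleton. The labels do not say how many embryos went into a library, which allele was used, or what separates the knockout culture from the wild-type culture beside the genotype. With 1 library per genotype no difference has a replicate check, so no SD and no p-value of the present calculation is given, and each statement compares these libraries and not the genotypes.

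Values are FPKM, that is fragments per kilobase of transcript after scaling to all mapped fragments. The column taken as wild type carries a -/- mark beside the wild-type name in its header, and every direction rests on reading it as wild type. Sptbn1, listed under its older name Spnb2, had 36.6 FPKM in knockout cells, against 69.6 FPKM in wild-type cells, so it was the lower in the column read as knockout but was not absent from it. The files hold FPKM and no fragment counts. Of the rows above 0 in knockout and wild-type cells alike, 3100 had a mean under 0.3 FPKM, and their commonest log2 ratio was 0.69 (383 rows within 0.005), at which 1 fragment is worth 1.61 times as much FPKM in knockout cells as in wild-type cells. The knockout library was therefore the shallower by that measure, but no absolute depth, interval or detection floor follows from it. All 11 fibroblast markers were listed at 29.7 FPKM or more in knockout cells and at 35.3 FPKM or more in wild-type cells, and none differed by 1.5-fold. Macrophage markers were also present, all 10 of them measured, with 2 lower by 1.5-fold (C1qb and Lyz2) and a summed level of 747 FPKM in the knockout and 1218 FPKM in the wild type. The joined row of Lyz1 and Lyz2 carried 572 FPKM of that sum in knockout cells and 979 FPKM in wild-type cells, and without it the sum was 175 FPKM in knockout cells, against 239 FPKM in wild-type cells. Of the 10 markers, 9 were lower in knockout cells, with a median log2 difference of −0.54. Ptprc (log2 difference 0.01), Tyrobp (−0.09) and Adgre1 (−0.12) were the closest to 0. In bulk RNA, fewer cells of a type and less RNA per cell cannot be told apart. The part of these cells in the ribosomal protein values was not tested. Of the markers of other cells, Alas2 of red cells had 4.06 FPKM in the knockout and 3.19 FPKM in the wild type, Krt18 of epithelia 1.33 FPKM in the knockout and 1.32 FPKM in the wild type, and Acta1 of muscle 1.04 FPKM in knockout cells, against 0.860 FPKM in wild-type cells. No endothelial marker reached a mean of 1 FPKM. The highest of them was Kdr, with 0.831 FPKM in knockout cells and 0.877 FPKM in wild-type cells. Other defining markers were listed at 0 in both libraries, namely Hba-a1 and Hbb-b1 of red cells, Myod1, Myog and Ckm of skeletal muscle, and Tnp1 and Prm1 of germ cells.

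Each cytosolic ribosome is built from ribosomal RNA and 1 copy of nearly every ribosomal protein, so cells make these proteins in matched amounts, and in growing fibroblasts their mRNAs are among the most abundant. Many of these mRNAs begin with a C followed by a run of pyrimidines (the 5′ terminal oligopyrimidine tract), through which the mTORC1 pathway adjusts their translation. In mammals each protein usually has 1 gene with introns, while reverse transcription of the abundant mRNAs has scattered many intronless copies of them over the genome, most annotated as processed pseudogenes.

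Such copies are part of what a short-read level can and cannot say, and they are shown first. Other genes of GENCODE vM21 were counted as near-identical copies where a transcript matched a member's transcript at 95% identity or more over 80% or more of the shorter one. There were 612 such copies, 602 annotated as pseudogenes and 10 as protein-coding, and 76 of the 81 members had at least 1. The standard genes had a median of 6 copies, with 60 for Rpl21, 37 for Rpl7a, 31 for Rpl29 and 29 for Rps2. Rpl41 was among the few standard genes with no copy by this definition. Of the 612 copies, 116 had a row of their own in the deposited table, belonging to 42 members.

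The coding sequences below are shown because they set a member beside the copy that the table listed at the higher level. They were read 5′ to 3′ from GENCODE vM21 transcripts, and capitals mark bases that differ between member and copy. Rps29 and Gm14303 were identical over all 168 coding bases, as were Rps27 and Rps27rt over 252. Rpl11 and Gm10288 differed at 1 of 534 coding bases, and Rpl35 and Gm2000 at 1 of 369.
Rps27 and Rps27rt, coding bases 1 to 60: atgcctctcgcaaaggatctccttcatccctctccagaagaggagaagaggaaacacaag
Rpl11, coding bases 66 to 106: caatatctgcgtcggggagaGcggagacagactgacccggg
Gm10288, the same bases: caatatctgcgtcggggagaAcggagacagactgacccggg
Rpl35, coding bases 97 to 137: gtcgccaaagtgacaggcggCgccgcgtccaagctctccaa
Gm2000, the same bases: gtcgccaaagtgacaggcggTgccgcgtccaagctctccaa

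The listed levels did not follow the matched supply of the proteins. The 81 members had a median of 9.003 FPKM in knockout cells and 8.76 FPKM in wild-type cells, with quartiles of 1.74 and 39.9 FPKM in knockout cells and of 1.91 and 39.3 FPKM in wild-type cells. By their mean over both libraries, 16 members were under 1 FPKM, 27 between 1 and 10, 27 between 10 and 100, and 11 at 100 FPKM or more. The highest measured member stood 368 times above the lowest, where measured means a mean of 1 FPKM or more. The order of the members was nearly the same in both libraries (across 81 members, Spearman rho 0.977 and Pearson r 0.980 on log2(FPKM + 1); genes are not independent replicates).

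**Figure D1:**
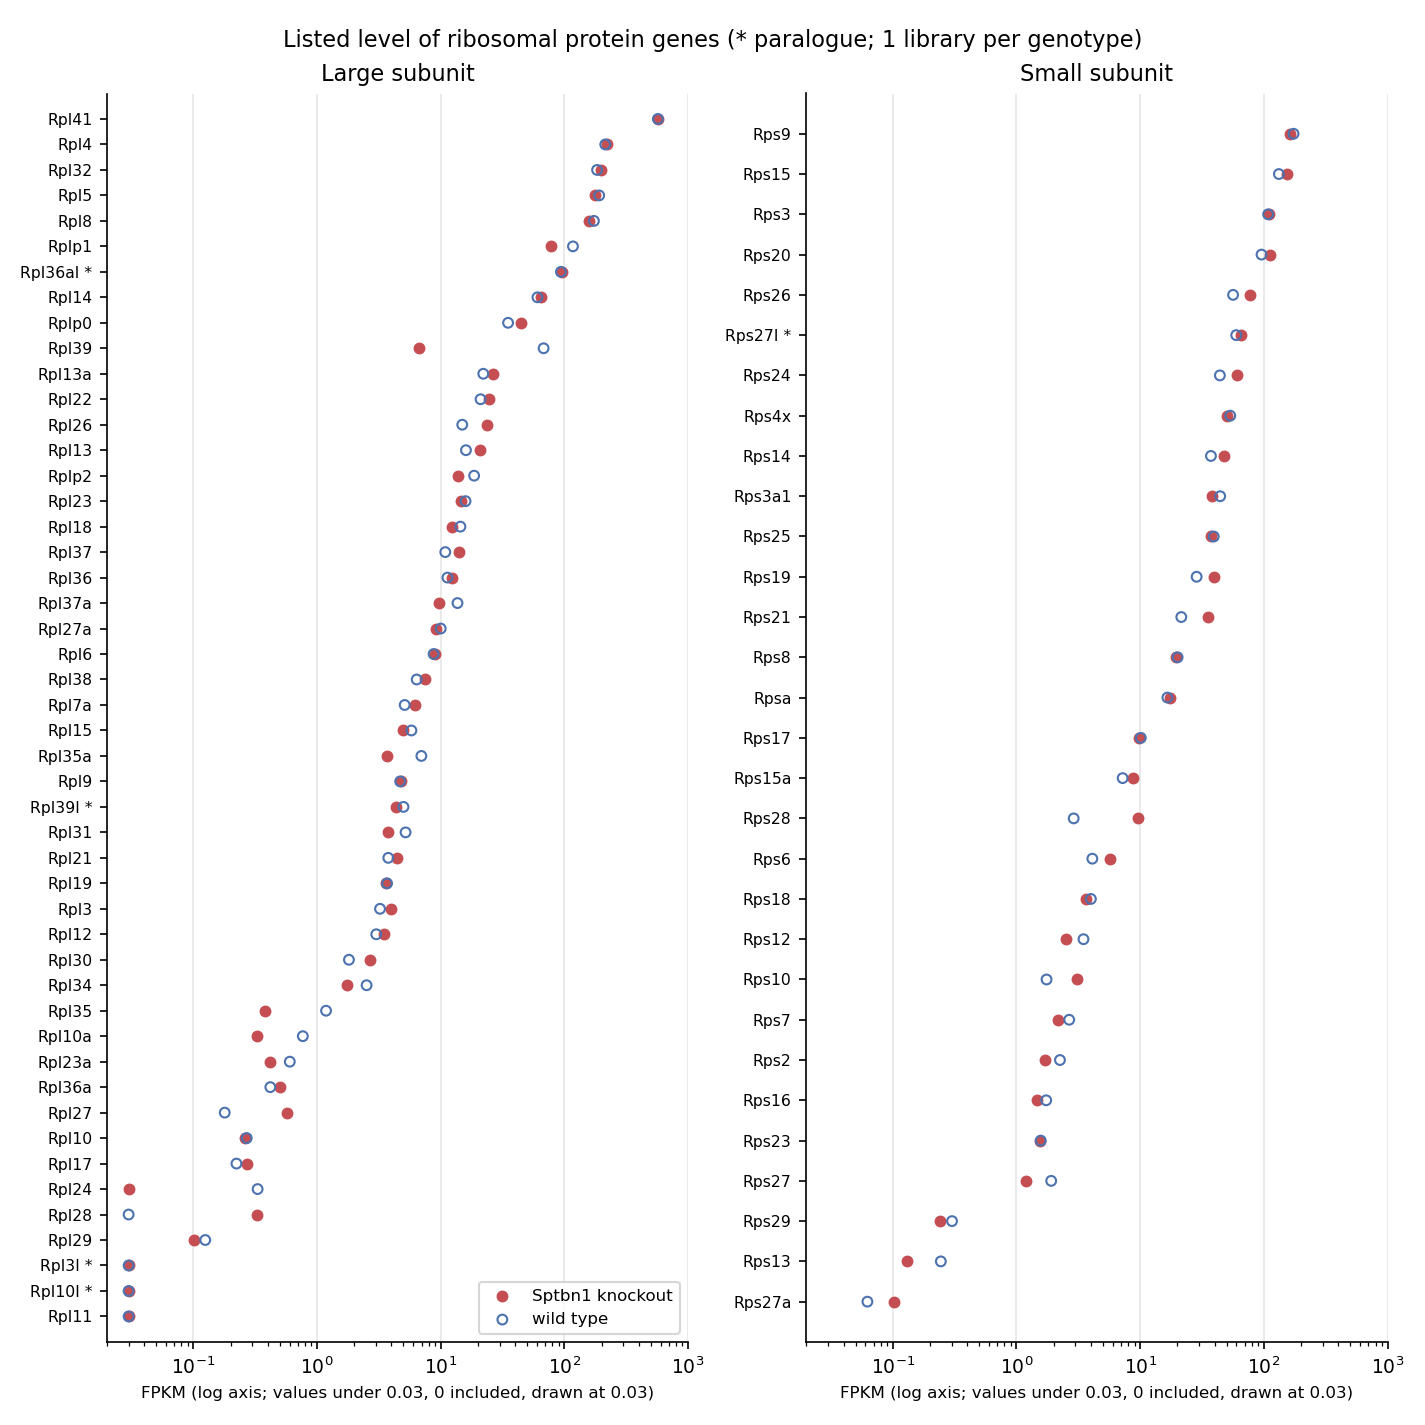
Level of large-subunit and small-subunit genes in FPKM on a log axis (a few genes are not drawn), with filled circles for the Sptbn1 knockout library and open circles for the wild-type library (1 library each; values under 0.03 are drawn at 0.03). Within both subunits the levels run over several orders of magnitude, from Rpl11 at 0 in both libraries to Rpl41 at 575 in knockout cells and 570 in wild-type cells, and for most genes the circles nearly coincide.

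Rpl41, which encodes a very short basic peptide, was the highest member of the large subunit, at 575 FPKM in knockout cells, against 570 FPKM in wild-type cells. It has no near-identical copy by the definition used here, which also required a match of at least 100 bases, so shorter copies were not counted. In the same subunit Rpl4 had 221 and Rpl32 had 197 FPKM in knockout cells, against 214 FPKM for Rpl4 and 184 FPKM for Rpl32 in wild-type cells. The 10 highest members held 64.0% of the summed FPKM of all members in knockout cells and 64.6% in wild-type cells.

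Mitochondrial ribosomal protein genes, which encode the proteins of the scarcer ribosome inside mitochondria, give a scale for these levels. The table lists 73 of them, and their median was 6.89 FPKM in knockout cells and 7.03 FPKM in wild-type cells, with quartiles of 4.07 and 10.1 FPKM in knockout cells and of 3.95 and 9.68 FPKM in wild-type cells. Of the 81 cytosolic members, 38 had a mean below the median mitochondrial mean. The span from the lowest measured to the highest gene was 43.7-fold among the mitochondrial genes.

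A member was called implausibly low when its mean was under 10% of the member median, that is under 0.888 FPKM. This held for 16 of 81 members, the same 16 that had a mean under 1 FPKM, while 2 of 73 mitochondrial genes lay under that level. The last member inside the limit was Rpl35 at a mean of 0.781 FPKM, and the first outside was Rps27 at 1.55 FPKM. Rpl35 lay above the limit in wild-type cells taken alone, at 1.18 FPKM. The 16 comprised 11 of the 45 standard large-subunit genes, 3 of the 31 standard small-subunit genes, and the paralogues Rpl3l and Rpl10l.

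Of the large subunit, Rpl11, which with Rpl5 carries the 5S ribosomal RNA and can bind the p53 regulator Mdm2, was listed at 0 in both libraries. Its partner Rpl5 had 178 FPKM in knockout cells, against 191 FPKM in wild-type cells. Rpl24, of the subunit interface, was listed at 0 in knockout cells and at 0.331 FPKM in wild-type cells. Rpl28, which has no counterpart in budding yeast, had 0.330 FPKM in knockout cells and was listed at 0 in wild-type cells. An exact 0 can be a failed estimate, so these are only said to be listed at 0.

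Rpl10, which is among the last proteins to join the large subunit, had 0.261 FPKM in the knockout and 0.270 FPKM in the wild type. Rpl10a, the protein of the stalk through which spent transfer RNA leaves, had 0.330 FPKM in knockout cells and 0.768 FPKM in wild-type cells. Around the exit of the peptide tunnel, Rpl17 had 0.269 FPKM in knockout cells, against 0.223 FPKM in wild-type cells. Of the other proteins around that exit, Rpl23a had 0.415 FPKM in the knockout and 0.603 FPKM in the wild type, and Rpl35 had 0.380 FPKM in knockout cells and 1.18 FPKM in wild-type cells, while Rpl19 was higher, with 3.64 FPKM in knockout cells and 3.68 FPKM in wild-type cells. Rpl27 had 0.577 FPKM in knockout cells, against 0.180 FPKM in wild-type cells, Rpl29 had 0.1004 FPKM in the knockout and 0.125 FPKM in the wild type, and Rpl36a had 0.505 FPKM in knockout cells and 0.420 FPKM in wild-type cells. All of these encode standard proteins of the large subunit.

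Of the small subunit, Rps27a, made as a fusion to ubiquitin, had 0.103 FPKM in knockout cells, against 0.0624 FPKM in wild-type cells. Rps13, of the subunit interface, had 0.131 FPKM in the knockout and 0.245 FPKM in the wild type. Rps29, a small zinc-binding protein, had 0.241 FPKM in knockout cells and 0.301 FPKM in wild-type cells. At such values the difference between the libraries was not read in either direction, apart from what the authors' table calls.

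By the rows of the genes themselves, the 5 paralogues fell on both sides of their parent genes. Rpl36al, a close relative of Rpl36a, had 95.1 FPKM in knockout cells, against 93.8 FPKM in wild-type cells, 188 times its parent in knockout cells and 223 times in wild-type cells. Rps27l, a p53 target, had 65.6 FPKM in the knockout and 59.8 FPKM in the wild type, 54.7 times Rps27 in knockout cells and 31.3 times in wild-type cells. Rps27 itself had 1.20 FPKM in knockout cells and 1.91 FPKM in wild-type cells. These folds rest on the parents' own low rows. With its listed copy Rps27rt added, Rps27 came to 168 FPKM in knockout cells and 221 FPKM in wild-type cells, above Rps27l. Rpl36a was among the implausibly low members, and none of its 6 copies has a row. Rpl39l had 4.37 FPKM in knockout cells, against 5.002 FPKM in wild-type cells. Rpl3l, known from striated muscle, was listed at 0 in knockout cells and at 0.0282 FPKM in wild-type cells, beside its parent Rpl3 at 3.95 FPKM in the knockout and 3.23 FPKM in the wild type. Rpl10l, known from testis, was listed at 0 in both libraries. Of the muscle and germ cell markers, Myod1, Myog, Ckm, Tnp1 and Prm1 were at 0 in both libraries as well. Acta1 was not, with 1.04 FPKM in knockout cells and 0.860 FPKM in wild-type cells. Myh3, Ddx4, Dazl and Sycp3 were low but above 0 in at least 1 library, the highest being Sycp3 with 0.115 FPKM in the knockout and 0.217 FPKM in the wild type.

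Standard genes with closer copies were listed lower. The 56 genes with a copy of 99% identity or more had a median of 4.20 FPKM in knockout cells and 4.05 FPKM in wild-type cells, and all 14 implausibly low standard genes were among them. The 9 genes whose closest copy lay between 98% and 99% had a median of 39.9 FPKM in knockout cells, against 35.1 FPKM in wild-type cells. The 11 genes with a closest copy under 98%, or with none, had a median of 155 FPKM in the knockout and 132 FPKM in the wild type. The lowest mean among those 11 was the 16.2 FPKM of Rplp2, and 7 of them reached 100 FPKM. These limits of identity were set after the values were seen.

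The number of copies separated the ends of the range but not its middle. The 17 standard genes with 0 to 2 copies had a median of 47.7 FPKM in knockout cells and 37.3 FPKM in wild-type cells. The 20 genes with 3 to 5 copies had 9.35 FPKM in the knockout and 9.44 FPKM in the wild type, and the 19 with 6 to 9 copies had 9.60 FPKM in the knockout and 11.3 FPKM in the wild type. The 20 with 10 or more copies had 3.56 FPKM in knockout cells, against 3.63 FPKM in wild-type cells, with none above a mean of 19.8 FPKM. Over the 76 standard genes the Spearman correlation of the mean level was −0.59 with the identity of the closest copy, −0.47 with the number of copies and 0.19 with transcript length, given as descriptions of genes that share the same libraries. The order had exceptions. Rpl5 and Rpl8 each had a copy of 100% identity, and yet Rpl8 was listed at 158 FPKM in the knockout and 173 FPKM in the wild type. Rpl10a, with 1 copy, was implausibly low. How the authors' run assigned fragments that align to several genes is not stated in the labels, and the part of the copies in the listed levels was not tested.

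**Figure D2:**
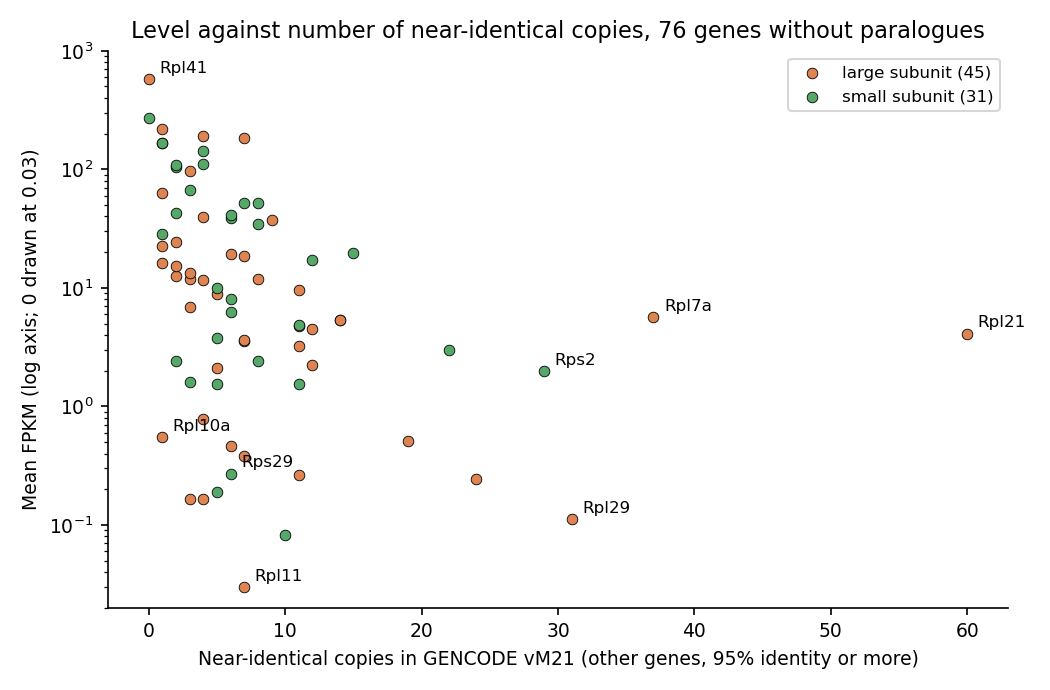
Mean FPKM of both libraries (log axis, 0 drawn at 0.03) against the number of near-identical copies annotated in GENCODE vM21 for the 76 standard genes, coloured by subunit. Genes with 0 to 2 copies reach 573 FPKM (Rpl41), and no gene with 10 or more copies lies above 19.8 FPKM.

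In the same table, copies were listed where the member was not. Of the 116 copy rows, 38 had a mean of 1 FPKM or more, 24 of 10 or more and 13 of 50 or more. For 24 members at least 1 copy was listed above the member itself. Of the 16 implausibly low members, 11 had a copy with a row and 9 had one listed higher. For 11 members the copy was at least 10-fold higher and at 10 FPKM or more.

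Gm14303, whose coding sequence is that of Rps29, had 515 FPKM in knockout cells, against 471 FPKM in wild-type cells. Gm10288, the copy of Rpl11 shown above, had 137 FPKM in the knockout and 151 FPKM in the wild type, where Rpl11 was listed at 0. Gm2000, the copy of Rpl35, had 75.5 FPKM in knockout cells and 78.5 FPKM in wild-type cells. In each of these pairs the copy, and not the gene with introns, was listed among the higher ribosomal protein levels.

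Rps27rt, listed as Gm9846, had 167 FPKM in knockout cells, against 219 FPKM in wild-type cells, far above the values of Rps27 itself. Rps6 encodes the substrate after which the S6 kinases are named. It had 5.67 FPKM in knockout cells, against 4.105 FPKM in wild-type cells, while its copy Rps6-ps4, identical over 747 coding bases, had 142 FPKM in the knockout and 158 FPKM in the wild type. Rpl31-ps8 had 144 FPKM in both libraries, while Rpl31 had 3.74 FPKM in knockout cells and 5.20 FPKM in wild-type cells. Rps23-ps1 had 155 FPKM in knockout cells, against 182 FPKM in wild-type cells, while Rps23 had 1.54 FPKM in the knockout and 1.57 FPKM in the wild type. For other low members no row made up the gap: the copy rows of Rps13, Rpl10 and Rps27a were all under 0.3 FPKM on average, and Rpl24 and Rpl10a had no copy with a row.

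**Figure D3:**
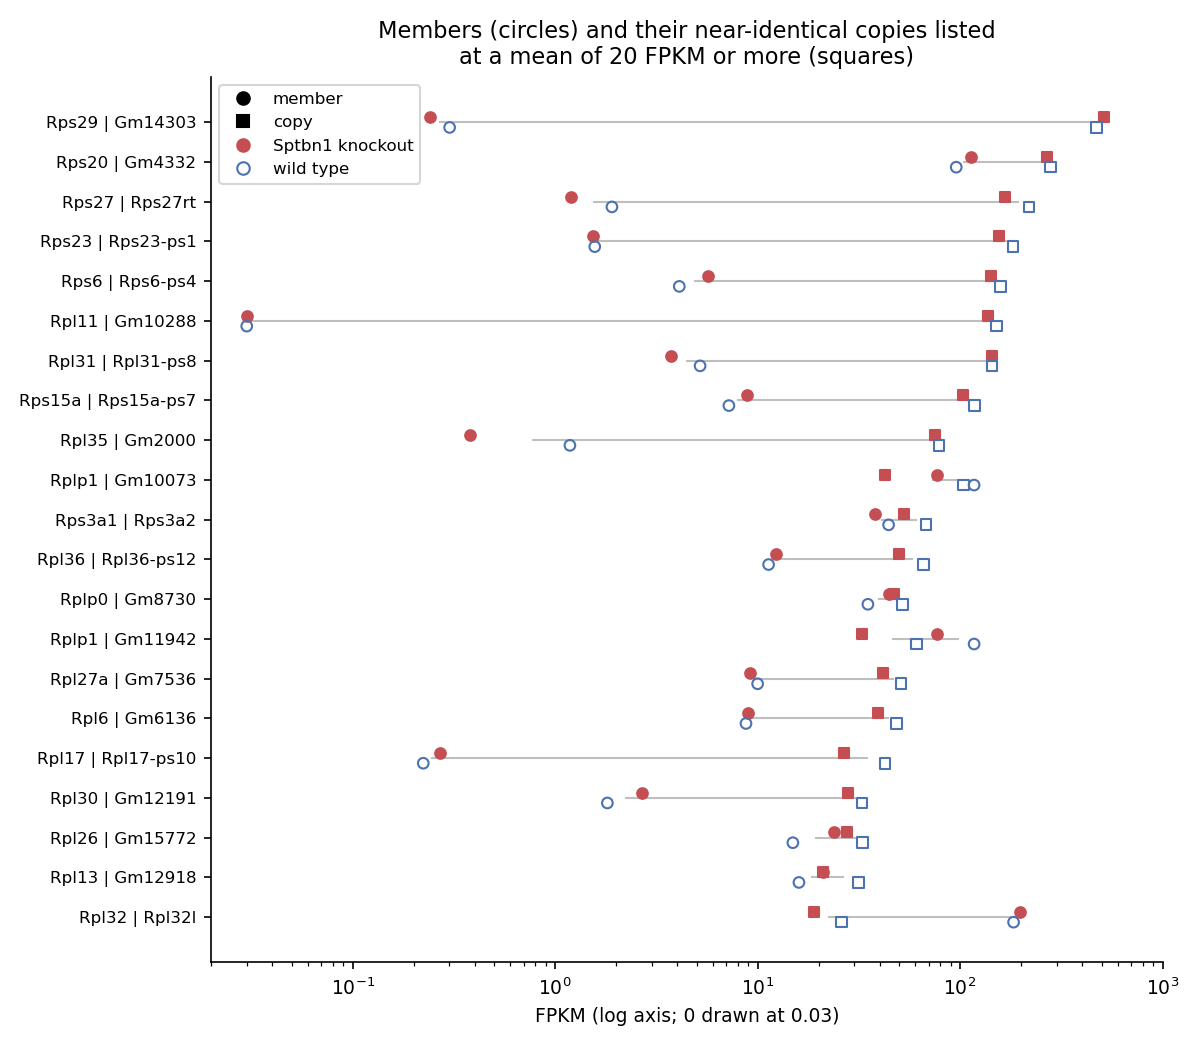
FPKM on a log axis (0 drawn at 0.03) of members (circles) and of their near-identical copies with a mean of 20 FPKM or more (squares; not every pair is drawn), filled for the Sptbn1 knockout library and open for the wild-type library, with a line joining the 2 means. In most of these pairs the copy lies to the right of the member, by the widest gap for Rps29 and Rpl11, while Rpl32 and Rplp1 lie above their copies.

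When the FPKM of the listed copies was added to each member (an alternative chosen after the values were seen), 8 in place of 16 members stayed under 0.888 FPKM, 6 of them standard genes. The number at 50 FPKM or more was then 33, against 18 for the members alone. The median of these sums was 28.4 FPKM. The limit of 0.888 FPKM comes from the members alone and was not moved with that median, so the fall from 16 to 8 depends on keeping it.

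The large subunit was listed at lower levels gene by gene than the small subunit. The 49 large-subunit genes had a median of 6.19 FPKM in knockout cells and 6.40 FPKM in wild-type cells. The 32 small-subunit genes had a median of 18.5 FPKM in knockout cells, against 18.3 FPKM in wild-type cells. Without the paralogues the medians were 6.71 FPKM for the large and 17.5 FPKM for the small subunit in knockout cells, and 6.98 FPKM for the large and 16.6 FPKM for the small subunit in wild-type cells. In both libraries 11 genes of the 2 subunits together reached 100 FPKM, 5 large and 6 small in knockout cells and 6 large and 5 small in wild-type cells. With members under a mean of 1 FPKM left out, the large-subunit median was 12.3 FPKM in the knockout and 12.5 FPKM in the wild type. The small-subunit median was then 35.2 FPKM in knockout cells and 21.5 FPKM in wild-type cells. Both of these small-subunit values are those of 1 gene, Rps21. The median log2 difference of the same 29 small-subunit genes was 0.02.

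Summed over genes, the 49 of the large subunit exceeded the 32 of the small. The large subunit summed to 1879 FPKM and the small subunit to 1453 FPKM in knockout cells, against 1957 FPKM for the large and 1368 FPKM for the small in wild-type cells. The large subunit thus held 56.4% of the summed FPKM of the members in knockout cells and 58.9% in wild-type cells. Rpl41 alone accounts for 575 FPKM of the large-subunit sum in knockout cells and 570 FPKM in wild-type cells. Without Rpl41 (an alternative chosen after the values were seen) the large subunit summed to 1304 FPKM in knockout cells, below the small, and to 1387 FPKM in wild-type cells, just above it. All members together summed to 3333 FPKM in knockout cells, against 3324 FPKM in wild-type cells. That was 1.19% of the whole FPKM sum in knockout cells and 0.860% in wild-type cells. The whole sums differed by themselves, at 279927 FPKM in the knockout and 386567 FPKM in the wild type. With small RNA genes, ribosomal RNA and rows over 5% of either sum left out, the shares were 2.11% in knockout cells and 2.08% in wild-type cells.

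Between the libraries most members differed little. Each difference is a log2 ratio of knockout over wild type after adding 1 FPKM to both, a scale that understates the change of low genes, and was read for the 65 measured members. Their median was 0.03, against −0.05 for all 11070 measured genes, and their quartiles were −0.13 and 0.23, against −0.16 and 0.06 for all. Above 0 were 36 of 65 (55.4%), where 36.9% of all measured genes were above 0. That share was not particular to the cytosolic genes. Among the 71 measured mitochondrial ribosomal protein genes, 39 (54.9%) were above 0. At 1.5-fold or more, 3 members were higher and 3 lower in knockout cells (4.62% each way), where the whole table had 1.04% of measured genes higher and 1.23% lower. Below 100 FPKM the typical difference was larger for the members than for all genes of like level. The median absolute log2 difference was 0.22 for the 27 members between 1 and 10 FPKM, against 0.12 for all genes of that level, and 0.26 for the 27 members between 10 and 100 FPKM, against 0.11. The 11 members at 100 FPKM or more went the other way, with 0.10 against 0.16. None of those 11 differed by 1.5-fold, and their log2 differences lay between −0.13 and 0.24. Genes of like FPKM can differ in fragment number with transcript length. Neither length nor copies were matched in these comparisons by level, and their part was not tested.

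The deposited FPKM were compared without rescaling, and the choice of scale changes some calls. Bringing both libraries to a common FPKM sum moved the median log2 difference of all measured genes to 0.33 and that of the members to 0.48. Then 22 members were higher at 1.5-fold, against 8.45% of all measured genes, and Rpl39 alone was lower, against 0.425%. Rplp1 stood at −0.13, Rpl35a at −0.39 and Rplp2 at 0.02 on that scale. Scaling to a common upper quartile or to the median measured gene each gave 4 members higher and 2 lower, the 2 being Rpl39 and Rpl35a. On those scales 1.24% and 1.26% of all measured genes were higher and 0.912% lower, and Rplp1, at −0.53 and −0.54, was no longer past 1.5-fold.

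**Figure D4:**
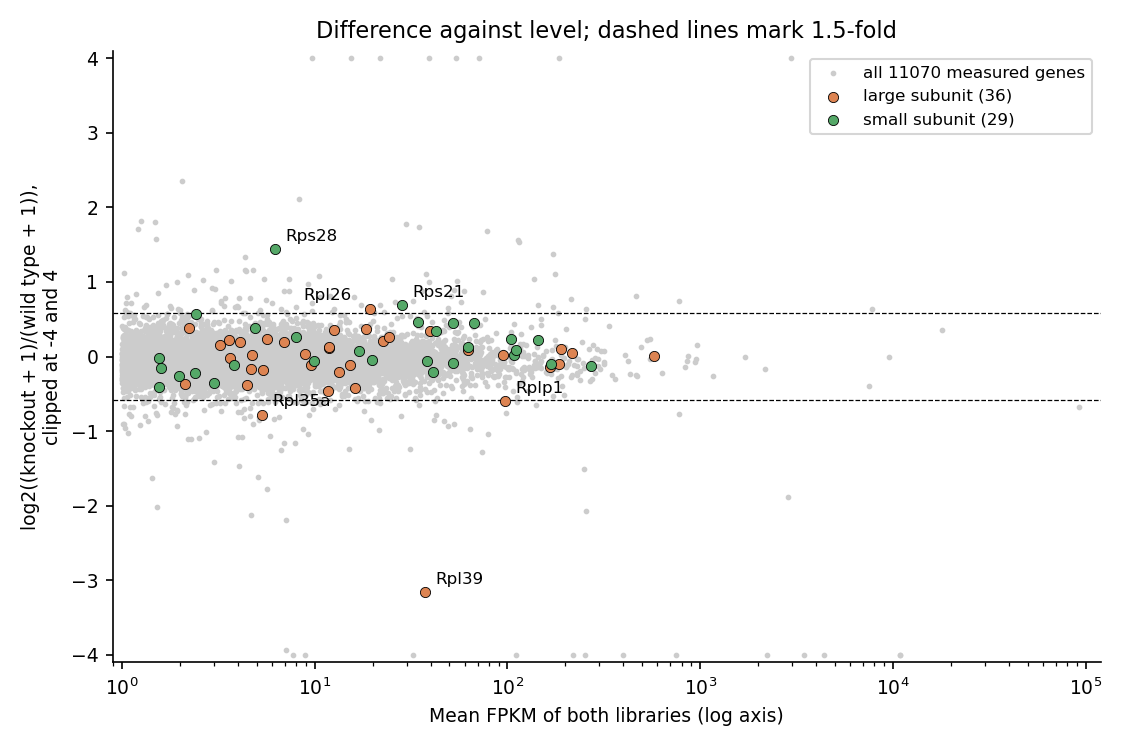
Log2 difference of the knockout library over the wild-type library (pseudocount 1 FPKM, values beyond the axis drawn at its edge) against mean FPKM on a log axis, for all 11070 measured genes (grey) and for the 36 large-subunit and 29 small-subunit members measured. Dashed lines mark 1.5-fold. Rpl39 lies far below the others at −3.16 and Rps28 above them at 1.44.

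Rpl39, a short protein lining the peptide exit tunnel, was the outlying member on the lower side. It had 6.71 FPKM in knockout cells and 67.9 FPKM in wild-type cells, a log2 difference of −3.16, and 9.88% of its wild-type level. The authors' deposited table gave it a p-value of 0.579. The gene lies on the X chromosome, holds 1 small nucleolar RNA gene, and has 9 near-identical copies, none with a row of its own. Rps28, at the mRNA exit of the small subunit, was the outlying member on the upper side. It had 9.60 FPKM in knockout cells, against 2.90 FPKM in wild-type cells, a log2 difference of 1.44, and its p-value in the authors' deposited table was 0.00417. Its 6 copies have no row either.

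The other members past 1.5-fold differed much less. Rps21 had 35.2 FPKM in the knockout and 21.5 FPKM in the wild type (log2 difference 0.69). Rpl26, which is also known to bind p53 mRNA, had 23.8 FPKM in knockout cells and 14.9 FPKM in wild-type cells (0.64). With its 2 listed copies added, Rpl26 came to 54.3 FPKM in knockout cells, against 52.3 FPKM in wild-type cells, and the log2 difference to 0.05. Rpl35a had 3.66 FPKM in the knockout and 6.98 FPKM in the wild type (−0.78).

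The acidic stalk, which recruits the elongation factors to the large subunit, held genes on both sides of 0. Rplp1 had 77.3 FPKM in knockout cells and 117 FPKM in wild-type cells (log2 difference −0.59; p-value 0.00230 in the authors' deposited table). Both of its listed copies were lower in knockout cells too. Gm10073 had 42.6 FPKM in knockout cells, against 104 FPKM in wild-type cells (−1.27), and Gm11942 had 32.9 FPKM in the knockout and 60.8 FPKM in the wild type (−0.87). The first coding bases of Rplp1 and Gm10073 are shown because both were lower and they are close in sequence. Capitals mark the base that differs within this stretch, and over all 342 coding bases 5 differ.
Rplp1, coding bases 1 to 41: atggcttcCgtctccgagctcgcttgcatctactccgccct
Gm10073, the same bases: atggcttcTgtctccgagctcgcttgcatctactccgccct
Rplp1 and its copies together came to 153 FPKM in knockout cells and 282 FPKM in wild-type cells, a log2 difference of −0.88. Its partner Rplp2 had 13.7 FPKM in knockout cells, against 18.6 FPKM in wild-type cells (−0.42). Rplp0, which anchors the stalk, had 44.7 FPKM in the knockout and 35.1 FPKM in the wild type (0.34).

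Among the 8 highest log2 differences were also Rps10 with 3.08 FPKM in knockout cells and 1.75 FPKM in wild-type cells (0.57) and Rps19 with 39.9 FPKM in knockout cells, against 28.6 FPKM in wild-type cells (0.47). Rps24 had 60.6 FPKM in the knockout and 44.1 FPKM in the wild type (0.45), Rps26 had 77.2 FPKM in knockout cells and 56.4 FPKM in wild-type cells (0.45), and Rps6 stood at 0.39. Among the 8 lowest were Rpl37a with 9.69 FPKM in knockout cells, against 13.7 FPKM in wild-type cells (−0.46), Rps27 (−0.40), Rpl31 (−0.39), and Rpl34 with 1.74 FPKM in the knockout and 2.52 FPKM in the wild type (−0.36). Rpsa, the small-subunit protein also described as a laminin receptor, had 17.5 FPKM in knockout cells and 16.6 FPKM in wild-type cells (0.07).

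Set against each other, the subunits had nearly the same median difference. The 36 measured large-subunit genes had a median log2 difference of 0.03 with 1 higher and 3 lower at 1.5-fold, and the 29 measured small-subunit genes had a median of 0.02 with 2 higher and 0 lower. The medians differed by 0.02. Above 0 were 21 of 36 large-subunit genes (58.3%) and 15 of 29 small-subunit genes (51.7%). Of the 38 copy rows at 1 FPKM or more, 29 were below 0, with a median of −0.23, 2 higher and 6 lower at 1.5-fold. The mitochondrial ribosomal protein genes had a median of 0.02 over 71 measured genes, with none at 1.5-fold.

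**Figure D5:**
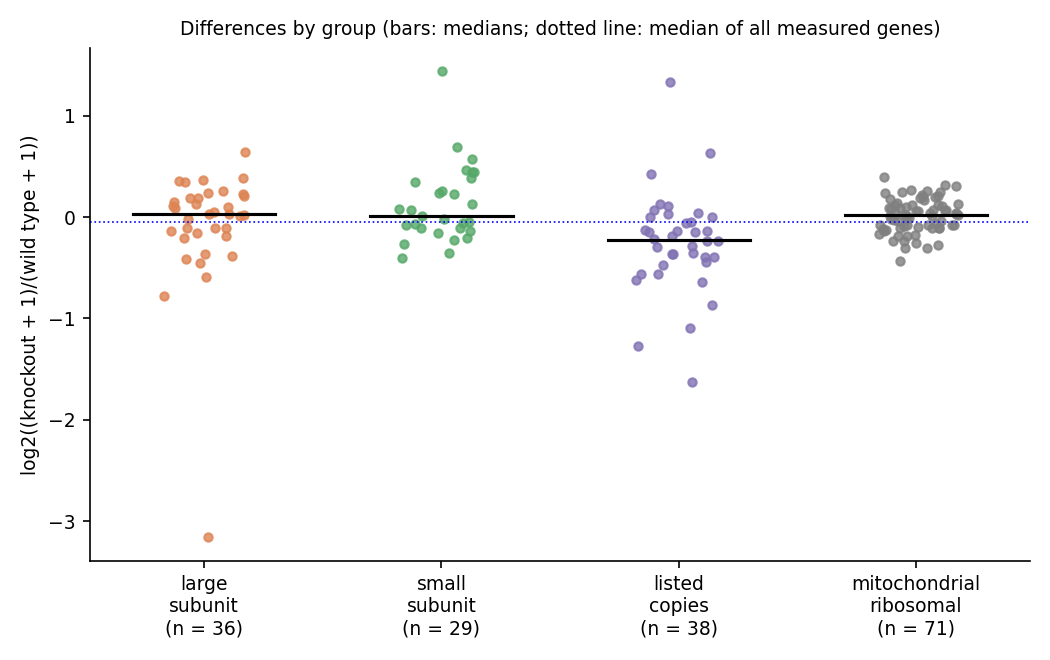
Log2 difference of the knockout library over the wild-type library for measured large-subunit genes, small-subunit genes, listed near-identical copies and mitochondrial ribosomal protein genes, 1 point a gene, with bars at the medians and a dotted line at the median of all measured genes (−0.05). The subunits have medians of 0.03 and 0.02, the copies lie lower at −0.23, and the mitochondrial genes spread least.

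The authors' deposited table gave 7 of the 81 members (8.64%) a p-value below 0.05, against 3.97% of all its rows and 5.60% of the measured genes. Higher in knockout cells were Rps28, Rpl26 (p-value 0.0279 in the authors' deposited table), Rps26 (0.0427), Rplp0 (0.0449) and Rps24 (0.0466). Lower were Rplp1 and Rpl24 (0.0261), and Rpl24 was listed at 0 in knockout cells. These p-values come from 1 library per genotype and were not adjusted here.

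Position and promoter sequence were looked at as features that the name rule does not use. The members lie on 19 chromosomes, with 14 on chromosome 7 and 4 on the X. Inside 30 of them lie 58 small nucleolar RNA genes, up to 5 in 1 gene, whose RNAs guide the modification of ribosomal RNA. The 26 measured host genes had a median log2 difference of 0.06 with 0 higher and 1 lower (Rpl39) at 1.5-fold, and the other 39 a median of 0.01 with 3 higher and 2 lower.

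RefSeq start windows of the GRCm38.p6 assembly were found for 74 starts of 62 members. A C followed by at least 4 pyrimidines from the start base on stood in 13 of them (17.6%), against 2.51% of all 32851 starts in the table. A C followed by at least 6 pyrimidines within 30 bases of the start stood in 54.1%, against 26.5% of all. The letters CCGGAAG, on either strand, were in 36.5% of the member windows and 8.86% of all, and AAGATGGC, on either strand, in 9.46% and 2.75% of all. No member window held TATAAA at 16 to 40 bases before the start, where 1.99% of all did. These are matches of letters and no measurement of a factor. The sequences that follow give 30 bases around the start (10 before, 20 from the start on) of 5 of the 13 members with such a tract, picked after their values were seen, with the pyrimidine run in capitals.
Rpl35, chr2:39005112-39005141, minus strand: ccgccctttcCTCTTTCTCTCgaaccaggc
Rpl28, chr7:4792955-4792984, plus strand: tctcgtgtctCTCTTTCCgtctccggccgc
Rps6, chr4:86857348-86857377, minus strand: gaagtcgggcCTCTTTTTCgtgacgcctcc
Rps10, chr17:27635225-27635254, minus strand: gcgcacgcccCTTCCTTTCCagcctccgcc
Rpl15, chr14:18270967-18270996, minus strand: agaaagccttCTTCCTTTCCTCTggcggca
Of the 13 members with such a tract, Rpl35 and Rpl28 were implausibly low, against 11 of all 62 members with a window.

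Lists of genes that work with the ribosome held no gene past 1.5-fold, where the whole table had the 1.04% higher and 1.23% lower given above. None of the 10 measured elongation factors differed by 1.5-fold, with a median log2 difference of 0.02; Eif5a (0.14), Eef1b2 (0.14) and Eef1g (0.13) stood farthest from 0. None of 40 initiation factors did (median −0.05), the farthest being Eif4a3 with 10.2 FPKM in knockout cells, against 7.16 FPKM in wild-type cells (0.45), Eif2b1 (−0.43) and Eif3e (0.28). Of 41 ribosome assembly factors none did (median −0.03), the farthest being Nop10 with 11.4 FPKM in the knockout and 16.9 FPKM in the wild type (−0.53), the nucleolar chaperone Npm1 (0.45) and Mrto4 (0.44). Of 16 genes of RNA polymerase I and its factors none did (median 0.02), with Taf1b at −0.47, Taf1d at 0.38 and Polr1c at 0.28.

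Other mRNAs with a terminal oligopyrimidine tract, 20 in all, had a median of 0.07 and none at 1.5-fold, with Naca at 0.53, Npm1 at 0.45 and Hnrnpa1 at −0.32. Of 16 genes of mTORC1 and its S6 kinases, the pathway that controls these mRNAs, none differed by 1.5-fold (median −0.07), with Rptor at −0.18, Rheb at −0.17 and Mtor at −0.15. Of 8 p53 genes read as signs of ribosomal stress none did (median −0.02). Phlda3 had 16.8 FPKM in knockout cells and 13.48 FPKM in wild-type cells (0.30), and Cdkn1a, the p53-induced inhibitor of the cell cycle, had 72.6 FPKM in knockout cells, against 84.9 FPKM in wild-type cells (−0.22), followed by Bax (−0.14). Among 6 related genes outside the name rule, none did (median 0.04), with Rpl7l1 at −0.35, the mitochondrial Mrpl1 at 0.25 and Rpl22l1 at 0.22.

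Of the genes passed over by the name rule, the joined row of Rpl7 had 19.6 FPKM in the knockout and 18.7 FPKM in the wild type, and Fau had 1.25 FPKM in knockout cells, against 1.502 FPKM in wild-type cells. Implausibly low levels were not confined to the ribosome. Among 11 other abundant housekeeping mRNAs, most of them with processed copies, Gapdh, which has 75 near-identical copies, had 0.566 FPKM in the knockout and 0.351 FPKM in the wild type. Ppia, with 18 copies, had 0.384 FPKM in knockout cells and 0.194 FPKM in wild-type cells. Eef1a1, with 9 copies, had 282 FPKM in knockout cells, against 308 FPKM in wild-type cells. Of the 9 measured genes of this list 1 was lower at 1.5-fold, and Tuba1b stood at 0.30 and Tpt1 at 0.29.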

How the data were processed

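Per the labels' protocols, each Illumina TruSeq RNA library was made from 1 µg of total RNA. Per the series' design text, reads were run on an Illumina HiSeq 2000, checked with FastQC and Trimmomatic, aligned with TopHat2 version 2.0.10 to NCBI mouse build 37.2, quantified with Cufflinks and compared with Cuffdiff2; strandedness, multi-mapping settings and other versions are not stated there. Per the file headers, the authors deposited 1 FPKM value per gene and library, and a p-value column, which is used only where it is named. Their log2 fold column was not used.

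Calculations were made with Python 3.11.15 (pandas 2.3.3, numpy 2.4.6, scipy 1.17.1); copies were searched with blastn 2.17.0 at word size 16, keeping matches of at least 100 bases, 95% identity and 80% of the shorter transcript, each copy counted for its best member. Reference sequences are on GRCm38, another build than the authors', so coordinates are given for RefSeq start windows only. The pseudocount was 1 FPKM. The named genes were all implausibly low members, the 8 highest and 8 lowest log2 differences, the paralogues with their parents, the acidic stalk proteins and Rpsa, the highest and lowest level of each subunit, and the 3 farthest from 0 in each comparison list; members and copies named otherwise were chosen after their values were seen. The members and lists were chosen with earlier results of these data known. The arithmetic of the calculation was tested on simulated data with known differences, all of which it recovered. Recovery of differences in the presence of library noise, or of fragments that align to several genes, was not tested. The number of libraries limits every statement to a description. A few items that the naming rule takes are not reported here, although they stay in every count.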

Additional observations from a re-analysis of the deposited data

How the results depend on the processing

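Alternatives tried were a pseudocount of 0.1 FPKM, measured limits from none to 5 FPKM, common FPKM sum, common upper quartile, centring on the median measured gene, other limits for an implausibly low level, the standard genes alone, joined names included, repeated names summed, and, chosen after seeing the data, the members without Rpl39 and Rps28, the members without Rpl41, the listed copies added and a limit from the upper quartile. Of 94 such values 80 stayed within 1.5 times or 0.1 on the log2 scale of the reported one and kept the order of the subunit sums. Some of the 80 could not differ. Leaving out the implausibly low members, also tried, removed only genes that were not measured. Summing repeated names changed no reported value. Centring cannot change the difference of the medians between the subunits. The 80 therefore overstate how stable the results were. Medians this close to 0 did change sign: the large minus small difference of the medians ranged from −0.07 (mean of 5 FPKM or more) to 0.04. Scaling to a common FPKM sum moved the median log2 difference to 0.48 for all members, 0.48 for the large and 0.48 for the small subunit, with 22 members higher and 1 lower at 1.5-fold; it also moved the median of all measured genes to 0.33, with 8.45% higher and 0.425% lower, which its construction sets. With listed copies added, 5 were lower at 1.5-fold and 8 stayed under 0.888 FPKM, the limit from the members alone. A limit of 10% of the upper quartile called 29 members implausibly low. Without small RNA genes, ribosomal RNA and rows over 5% of either sum, the members' share was 2.11% in knockout cells and 2.08% in wild-type cells. Without Rpl41 the large-subunit share of the member sum was 47.3% in knockout cells and 50.3% in wild-type cells. With members under a mean of 1 FPKM left out, median levels were 12.3 FPKM in knockout cells and 12.5 FPKM in wild-type cells for the large subunit. For the small subunit the median was 35.2 FPKM in knockout cells, which is the value of Rps21 alone. For moves not set by construction the cause was not tested. Of 160 values of 40 named members under alternatives, 48 moved and 0 changed the direction of a 1.5-fold call. Most of the 40 were not past 1.5-fold, and for those no such change could be counted. No paired analysis was possible because each genotype has 1 library, and for the same reason no replicate could be left out. Unknown depth limits all values near 0.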
